A study of Mus musculus with 6 samples.

Results

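Transcript levels of 10 genes of the interleukin-18 (IL-18), interleukin-1 (IL-1) and inflammasome system were examined in whole retinas of mice with and without a functional Wfs1 gene, the gene mutated in Wolfram syndrome. The genes were picked by name from the 55376 genes of the count table: the ligands Il18, Il1a and Il1b, the inhibitors Il18bp and Il1rn, the receptor chain Il18r1, the inflammasome genes Nlrp3, Pycard and Casp1, and the pore-forming Gsdmd. All 10 were found under their symbols. Il18 and Casp1 lie on chromosome 9, Il1a, Il1b and Il1rn on chromosome 2, Il18bp and Pycard on chromosome 7, Il18r1 on chromosome 1, Nlrp3 on chromosome 11 and Gsdmd on chromosome 15. The study compared retinas of 3 WT mice with retinas of 3 Wfs1-KO mice, each from a different animal, by RNA-seq at an age of 240 days. Wfs1-KO mice carried a targeted germline deletion of exon 8 of Wfs1, so a difference in the retina cannot be assigned to loss of the gene in any one cell type. The labels give the strain as C57x129 for both genotypes, while the methods name a C57BL/6 J background. The labels name no treatment.

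IL-18 and IL-1β are made as inactive precursors that caspase-1 cuts into the secreted forms. Caspase-1 is itself switched on within the inflammasome, a complex in which a sensor such as NLRP3 recruits caspase-1 through the adaptor ASC, the product of Pycard. The same protease opens gasdermin D, the product of Gsdmd, which forms pores in the plasma membrane. Secreted IL-18 is neutralised by the IL-18 binding protein (Il18bp), and the IL-1 receptor is blocked by the IL-1 receptor antagonist (Il1rn). IL-1α, the product of Il1a, binds the same receptor as IL-1β without needing caspase-1. In the eye, macrophages, microglia and epithelial cells are known sources of these cytokines. Because cutting and secretion act on proteins, RNA-seq measures the supply of precursor transcripts and not the active cytokines.

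The promoters of Il18 and of its inhibitor Il18bp are shown because the ligand and the inhibitor of one pathway showed different patterns between the genotypes. Sequences are RefSeq windows of the GRCm38.p6 build that run from 250 bases before to 50 bases after a transcript start, written 5′ to 3′ on the strand of the gene. That of Il18 lies at chr9:50554450-50554749 on the plus strand and that of Il18bp at chr7:102018183-102018482 on the minus strand. The Il18 window was set on a RefSeq start and ends before base 50554827, where Il18 begins in the count table. It thus holds no counted exon of Il18 and not the bases just before that start. Capitals mark matches to the 5 motifs searched on both strands.
Il18: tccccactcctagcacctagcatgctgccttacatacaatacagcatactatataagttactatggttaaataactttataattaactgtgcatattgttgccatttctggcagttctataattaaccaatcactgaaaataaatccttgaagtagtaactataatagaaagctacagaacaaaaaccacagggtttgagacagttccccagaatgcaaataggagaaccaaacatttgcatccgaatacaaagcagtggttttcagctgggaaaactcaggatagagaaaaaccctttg
Il18bp: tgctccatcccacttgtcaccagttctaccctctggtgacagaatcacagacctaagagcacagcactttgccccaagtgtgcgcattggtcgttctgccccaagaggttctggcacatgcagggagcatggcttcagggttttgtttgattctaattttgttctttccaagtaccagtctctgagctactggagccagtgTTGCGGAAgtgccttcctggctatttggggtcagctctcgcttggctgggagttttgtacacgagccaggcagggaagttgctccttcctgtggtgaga
The Il18 window held no match to any of the 5 motifs, in which N is any base. They were GGG followed after NN by TTTCC for NF-kB, GAGGAA for PU.1, GAAA repeated after NN for IRF, TTCNNNGAA for STAT and TTGCNNAA for CEBP. The Il18bp window held 1 match, TTGCGGAA for CEBP, from 49 to 42 bases before the start. Of the 32851 RefSeq mouse promoters, 10.8% held the CEBP motif, 28.3% the PU.1 motif, 8.30% the STAT motif, 3.44% the IRF motif and 1.63% the NF-kB motif. The GC content was 36.7% in the Il18 window and 52.7% in the Il18bp window. Among the other members, Pycard, Casp1, Il1a, 1 of the Nlrp3 windows and 1 of the Il18r1 windows held PU.1 matches. Pycard also held a CEBP match, and the same Il18r1 window 2 STAT matches. No matches overlapped. Il1rn held the only NF-kB match, GGGTTTTTCC, from 51 to 42 bases before one of its starts. The Il1b window held no match, and Gsdmd had no entry. A match is a run of letters and not a measured binding site.

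The 6 libraries held between 17916885 and 101334381 counted reads. Wfs1-KO replicate 2 stood apart from the rest, with a mean correlation of 0.918 to the other libraries against 0.962 to 0.971 for the others. Results are therefore also given without it. Wfs1 itself was at 61.4 to 69.9 CPM (counts of a gene after scaling each library to the same size) in WT and at 0.900 to 11.5 CPM in Wfs1-KO retinas. The summed level of 5 rod photoreceptor markers was between 45183 and 68673 CPM, so the labelled tissue was present in every library. WT replicate 3 also differed in sex from the other mice, since the Y-linked gene Ddx3y was counted 1137 times in it and no more than 2 times elsewhere. Of the counts between 1 and 10, between 71.1 and 79.3% were even in each library, and how the reads of a pair were counted is not given in the sources used here. Whether each read of a low count was a separate molecule was not tested.

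Il18 had the highest level per kilobase of exon among the members in both genotypes, and the largest log2 fold change of the 7 tested members with all 6 retinas. The gene (ENSMUSG00000039217.13) spans bases 50554827 to 50581840 of chromosome 9 (mm10, plus strand), has 4 transcripts in GENCODE M21 and shares no exon with another gene. WT replicates 1, 2 and 3 had 5.45, 4.96 and 3.35 CPM, and Wfs1-KO replicates 1, 2 and 3 had 12.9, 22.6 and 14.5 CPM. Every mutant retina lay above every WT retina, and replicate 2 was the highest of the mutants. Relative to the WT mean, mutant replicates 1, 2 and 3 were 2.82-fold, 4.93-fold and 3.17-fold higher. On the log2 scale the difference was 1.85 (standard error 0.30, 95% interval 1.14 to 2.57, Benjamini-Hochberg adjusted p = 0.482 in the quasi-likelihood test of edgeR). By p, Il18 held rank 16 among the 18547 genes tested. It thus missed the adjusted threshold, which 0.0108% of the tested genes passed in this fit. Without Wfs1-KO replicate 2 the log2 fold change was 1.55 with a narrower 95% interval of 1.06 to 2.03 (adjusted p = 0.0248 from the same test), and 0.125% of the genes passed. DESeq2 on all 6 retinas also passed it, with a log2 fold change of 1.84 (adjusted p = 6.29e-05), where 0.28% of the genes passed, and so did limma-voom with sample quality weights, at 1.62 (adjusted p = 0.00913), where 0.189% passed. In whole tissue, a larger number of cells that make a transcript and more transcript per cell cannot be told apart.

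Il18bp, the secreted inhibitor of IL-18, was at nearly one level throughout. WT retinas 1, 2 and 3 had 4.32, 4.10 and 3.52 CPM, and Wfs1-KO retinas had 4.44, 3.65 and 3.81 CPM. The genotypes overlapped fully, and the mutant retina with the most Il18 was the one with the least Il18bp among the mutants. Its log2 fold change of -0.0069 (standard error 0.24) had a 95% interval from -0.57 to 0.56. Of its 3026 exon bases, 80 also belong to Numa1, a gene with 2468 to 15722 counts per library.

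The ratio of ligand to inhibitor transcripts was higher in every mutant retina. Il18 over Il18bp, with both counts divided by exon length, was 3.70, 3.55 and 2.79 in WT replicates 1, 2 and 3. In Wfs1-KO replicates 1, 2 and 3 it was 8.55, 18.2 and 11.2. No mutant retina overlapped with WT, and the means were 3.35 ± 0.487 (SD, n = 3) in WT and 12.6 ± 4.99 (SD, n = 3) in Wfs1-KO. The ratio is given as a description with no test. Il18r1, the receptor chain that binds IL-18, was at the edge of detection: it had 10 counts in Wfs1-KO replicate 2 and 0 counts in each of the other 5 libraries, where a count of 0 allows up to 0.0291 to 0.170 CPM (3 counts, counting error only). Il18rap, the partner chain of that receptor, was between 0 and 0.142 CPM. Per kilobase of exon Il18r1 reached at most 0.0492 CPM, while the lowest value of Il18 in any retina was 3.25 CPM.

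**Figure D1:**
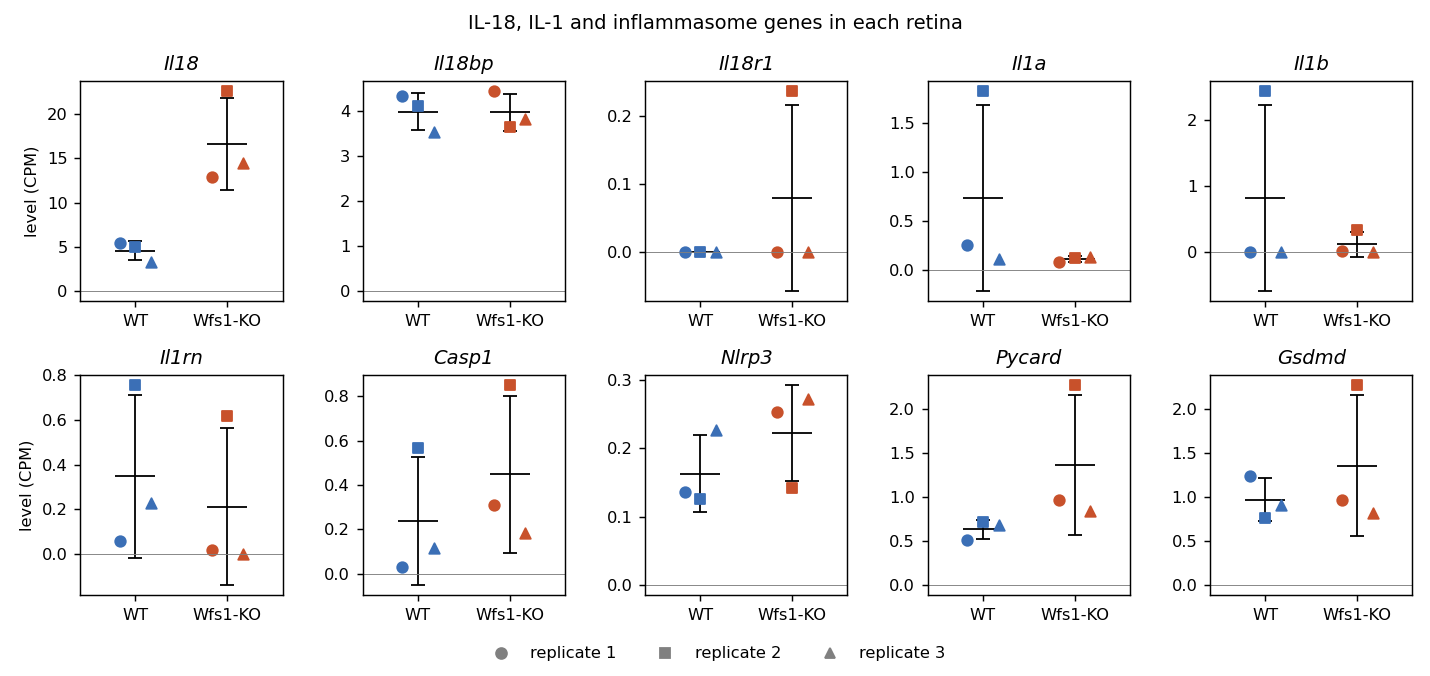
Level in CPM (vertical axes, each on its own scale) of the 10 genes in each retina, with WT in blue and Wfs1-KO in orange, one marker shape per replicate number, and the mean and SD of 3 retinas in black. Il18 and Pycard are the genes in which all mutant points lie above all WT points, and Il1a and Il1b are high only in WT replicate 2.

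The 2 IL-1 ligands were highest in a single WT animal. Il1b had 116 counts in WT replicate 2, 0 counts in WT replicates 1 and 3, and 2, 14 and 0 counts in Wfs1-KO replicates 1, 2 and 3. In CPM, WT replicate 2 reached 2.44 and the highest mutant 0.332. Il1a had 17, 87 and 2 counts in WT and 8, 5 and 6 counts in Wfs1-KO replicates 1, 2 and 3. WT replicate 2, at 1.83 CPM, was 9.90-fold above the mean of the other WT retinas, which lay at 0.256 and 0.114 CPM, and the mutants lay between 0.0776 and 0.136 CPM. Neither gene passed the filter on low counts. In a fit without that filter Il1a was lower in mutants by a log2 value of -2.79 (standard error 0.94, adjusted p = 0.876 from edgeR), and by -0.81 (standard error 1.09) once WT replicate 2 was left out. For Il1b the same fits gave -2.97 (standard error 1.63) and 5.66 (standard error 3.08), so its sign depended on that retina. Without the filter and without Wfs1-KO replicate 2, a setting in which 0.3% of the genes passed as lower, both passed as lower in mutants. Il1a was at -2.90 (adjusted p = 0.00194 from edgeR) and Il1b at -5.79 (adjusted p = 3.40e-09 from edgeR), with all Il1b counts of WT still in 1 of 3 retinas. Of the 1974 exon bases of Il1a, 222 are shared with Gm14023, which had 10 to 41 counts.

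Il1rn, which encodes the antagonist of the IL-1 receptor, was high in the second replicate of both genotypes. It had 4, 36 and 4 counts in WT and 2, 26 and 0 counts in Wfs1-KO replicates 1, 2 and 3, or 0.0602, 0.757 and 0.227 CPM against 0.0194, 0.616 and 0 CPM. WT replicate 2 thus held the most of both IL-1 ligands and of their antagonist. With all retinas the log2 fold change was -0.82 (95% interval -4.34 to 2.7). Leaving out Wfs1-KO replicate 2 gave -4.54 (edgeR adjusted p = 0.633), a fit that compares 4, 36 and 4 counts with 2 and 0, and in which adjusted p was 0.0223 once the filter was also dropped. Without the filter and without WT replicate 2 it was 0.65, of opposite sign.

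Pycard, the adaptor gene, had the highest log2 fold change of the inflammasome genes in the edgeR fit of all 6 retinas, but Casp1 had a higher one with limma-voom, with and without quality weights, with the replicate block and without WT replicate 2. Nlrp3 had a higher one than Pycard with quality weights and without Wfs1-KO replicate 2. WT replicates 1, 2 and 3 had 0.512, 0.715 and 0.681 CPM, and Wfs1-KO replicates 1, 2 and 3 had 0.961, 2.27 and 0.840 CPM. The genotypes did not overlap, but 1 mutant retina carried most of the difference. This difference was 1.10 on the log2 scale (standard error 0.50, 95% interval -0.07 to 2.26, adjusted p = 0.979 from edgeR). Without Wfs1-KO replicate 2 it was 0.52 (95% interval -0.36 to 1.40). Of the 3800 exon bases of Pycard, 485 are shared with Gm45205, which had at most 10 counts in any library.

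Casp1, the gene of the protease that releases IL-18 and IL-1β, lies on chromosome 9 as Il18 does, from 5298508 to 5307290. It had 2, 27 and 2 counts in WT and 32, 36 and 8 counts in Wfs1-KO replicates 1, 2 and 3, which correspond to 0.0301, 0.567 and 0.114 CPM and to 0.311, 0.852 and 0.182 CPM. As with the IL-1 ligands, WT replicate 2 was 7.90-fold above the mean of the other WT retinas, and above mutant replicates 1 and 3. With all retinas its log2 fold change was 0.85 (standard error 1.03, 95% interval -1.57 to 3.28). The value was 2.91 without WT replicate 2 (95% interval 0.08 to 5.75, adjusted p = 1.00 from edgeR) and 0.04 without Wfs1-KO replicate 2 (95% interval -2.05 to 2.13). The value for Casp1 thus rested on which of these 2 retinas was kept.

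Nlrp3, the sensor, was read from only 4 to 26 counts per library. It was at 0.135, 0.126 and 0.227 CPM in WT and at 0.252, 0.142 and 0.272 CPM in Wfs1-KO replicates 1, 2 and 3, with overlapping genotypes and a log2 difference of 0.54 (standard error 0.58). Gsdmd, the pore-forming substrate of caspase-1, was at 1.23, 0.757 and 0.908 CPM in WT and at 0.970, 2.27 and 0.817 CPM in Wfs1-KO replicates 1, 2 and 3. Mutant replicate 2 was the only one above the WT range. For Gsdmd the log2 fold change was 0.47 (standard error 0.49) with all retinas and -0.13 (95% interval -0.98 to 0.72) without that retina. Without it Nlrp3 was at 0.77 (95% interval -0.76 to 2.30).

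**Figure D2:**
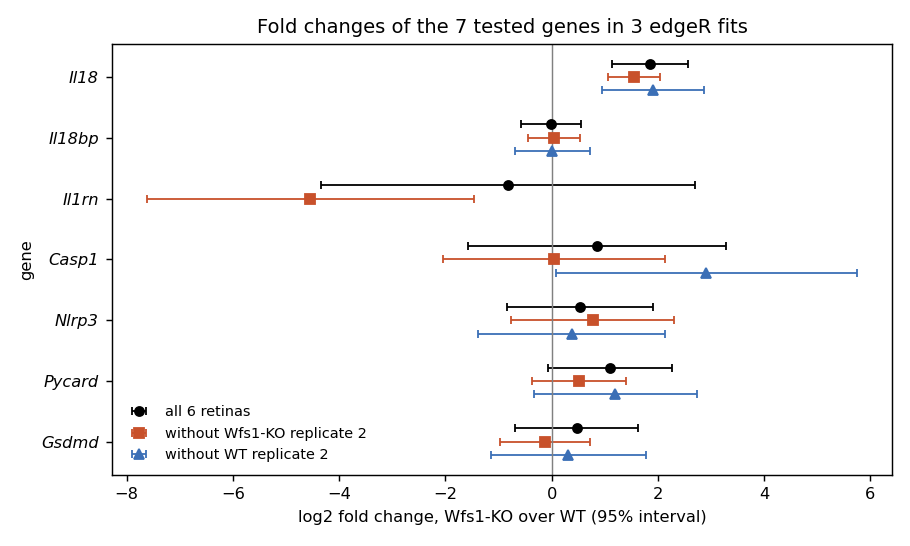
Log2 fold change of Wfs1-KO over WT (horizontal axis) with its 95% interval for the 7 members that passed the filter on low counts, from all 6 retinas (black circles), without Wfs1-KO replicate 2 (orange squares) and without WT replicate 2 (blue triangles). Il18 lies above 0 in all 3 fits, while Casp1 moves from 0.04 to 2.91 and Il1rn, which did not pass the filter in the third fit, from -0.82 to -4.54.

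The members were compared with each other as CPM per kilobase of exon. In WT the order was Il18 at 4.45 ± 1.07 (SD, n = 3), Il18bp at 1.31 ± 0.137, Il1b at 0.599 ± 1.04, Gsdmd at 0.539 ± 0.136, Il1a at 0.371 ± 0.482, Pycard at 0.167 ± 0.0286, Casp1 at 0.155 ± 0.189, Il1rn at 0.129 ± 0.134 and Nlrp3 at 0.0401 ± 0.0137, with Il18r1 at 0. In Wfs1-KO the order was Il18 at 16.2 ± 5.04, Il18bp at 1.31 ± 0.137, Gsdmd at 0.755 ± 0.446, Pycard at 0.357 ± 0.209, Casp1 at 0.293 ± 0.233, Il1b at 0.0863 ± 0.137, Il1rn at 0.0782 ± 0.129, Il1a at 0.0561 ± 0.0152, Nlrp3 at 0.0548 ± 0.0173 and Il18r1 at 0.0164 ± 0.0284. Il18 was above Il18bp in every retina of both genotypes. Every other pair of neighbours in these orders overlapped between retinas, apart from Nlrp3 and Il18r1 in WT, where the limit of 3 counts for Il18r1 reaches the level of Nlrp3. The place of Il1b above Gsdmd in WT came from WT replicate 2 alone.

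Of the group, 7 of 10 members passed the filter and were tested. At an unadjusted p under 0.05, 1 of these 7 was called, Il18, and it was higher. In the same fit 2.24% of all tested genes were called higher and 0.566% lower. Il18 and Pycard, 2 of the 7, were higher in every mutant retina than in every WT retina, as were 5.01% of all tested genes, and no tested member was lower in every mutant retina, against 3.94%. The median log2 fold change of the 7 was 0.54, beside 0.02 over all tested genes. Without Wfs1-KO replicate 2, 8 members were tested, with Il18 higher and Il1rn and Il1a lower at an unadjusted p under 0.05, where 2.80% of genes were higher and 2.39% lower, and the median was 0.04. In other fits the count at an unadjusted p under 0.05 was 2 of 7 with sample quality weights (Il18 and Il1rn, beside 7.63% of all tested genes), 2 of 10 without the filter (Il18 and Il1a, beside 3.78%) and 2 of 4 with at least 10 counts in every retina (Il18 and Pycard, beside 2.47%). The median of the members thus depended on that one retina.

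The wider pathway was read from a list of 54 further genes of the IL-1 family, its receptors and signalling chain, other inflammasome sensors, inflammatory caspases, pore-forming proteins, inhibitors and induced products. Of these, 31 were tested and none had an unadjusted p under 0.05 with edgeR, in either direction, nor with DESeq2 or limma-voom on the same genes. In the edgeR fit 2.24% of all tested genes were higher and 0.566% lower at that p. The smallest p was 0.0911, for Sigirr, an inhibitory receptor of the family. The median log2 fold change of the list was 0.27, and 0.075 without Wfs1-KO replicate 2. IL-33 (Il33), an alarmin of the same family, was the only further ligand that passed the filter, at 46.4, 66.8 and 65.8 CPM in WT and at 75.5, 81.6 and 62.8 CPM in Wfs1-KO replicates 1, 2 and 3, with overlapping genotypes. The log2 difference of Il33 was 0.30 (standard error 0.21). The 4 genes of the IL-36 ligands and antagonist had at most 0.426 CPM in any retina.

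The IL-1 receptor and the shared signalling chain were read next. Il1r1, the receptor for both IL-1 ligands, was at 6.83, 7.78 and 8.06 CPM in WT and 7.87, 7.29 and 8.06 CPM in Wfs1-KO replicates 1, 2 and 3, a log2 difference of 0.04 (standard error 0.19). Il1r2, the decoy receptor, was listed at 0 counts in WT replicates 1 and 3 and highest in WT replicate 2, at 0.252 CPM. Myd88, the adaptor shared by the receptors of IL-1 and IL-18, was between 8.17 and 11.2 CPM in all retinas, with a log2 fold change of 0.17 (standard error 0.20). Of the 10 signalling genes none was called, and their median log2 fold change was 0.11. Tollip, an adaptor that dampens this signalling, was 1 of 31 tested genes of the wider list whose genotypes did not overlap, beside 8.96% of all tested genes, at 166, 169 and 173 CPM in WT and 163, 131 and 165 CPM in Wfs1-KO replicates 1, 2 and 3, a log2 difference of -0.15 (standard error 0.17). Among genes below the filter, Naip5, a sensor subunit, was higher in every mutant retina, at 0.0903, 0.0841 and 0.114 CPM in WT and 0.214, 0.237 and 0.182 CPM in Wfs1-KO replicates 1, 2 and 3. These were 6, 4 and 2 counts against 22, 10 and 8, and 3 counts amount to 0.170 CPM in WT replicate 3. Without the filter the log2 fold change of Naip5 was 1.11 (standard error 0.92). Il6, also below the filter, was lower in CPM in every mutant retina. It had 2, 16 and 2 counts in WT and 2, 0 and 0 counts in Wfs1-KO replicates 1, 2 and 3. Its log2 fold change without the filter was -3.89 (standard error 1.57, adjusted p = 0.876 from edgeR). The share of genes below the filter without overlap was not determined.

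Several genes that IL-1 is known to induce were, like Il1b, highest in WT replicate 2. Of the 9 induced products on the list, 8 had counts, and 5 of these 8 were highest in WT replicate 2: Il6, Tnf, Cxcl1, Cxcl2 and Ccl2. Tnf was nearly level between WT replicate 2, at 0.294 CPM (14 counts), and Wfs1-KO replicate 2, at 0.284 CPM (12 counts). Over all genes with a count, 15.3% were highest in that retina. Ccl2, a chemokine for monocytes, was at 1.18 CPM in WT replicate 2, at 0.0301 and 0.114 CPM in WT replicates 1 and 3, and at 0.0388, 0.332 and 0 CPM in Wfs1-KO replicates 1, 2 and 3. Cxcl2, a chemokine for neutrophils, had 0.504 CPM in WT replicate 2 and 0 counts in the other 5 retinas. Il6 was at 0.336 CPM there, at 0.0301 and 0.114 CPM in the other WT retinas, and at 0.0194, 0 and 0 CPM in the mutants, where counts of 0 allow levels above that of WT replicate 1. The summed level of the neutrophil markers in WT replicate 2 was 0.126 CPM, within the 0.114 to 0.151 CPM of WT, with Cxcr2 at 0 counts in all 6 retinas. That of the macrophage and monocyte markers was 22.9 CPM, the highest of the WT retinas, of which Lyve1 made up 15.4 CPM and Lyz2 6.98 CPM. The part of these cell types in the levels of the IL-1 genes was not tested. All 5 products failed the filter on low counts, and Ptgs2, Nos2 and Icam1, the 3 products that passed it, were not highest in this retina.

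**Figure D3:**
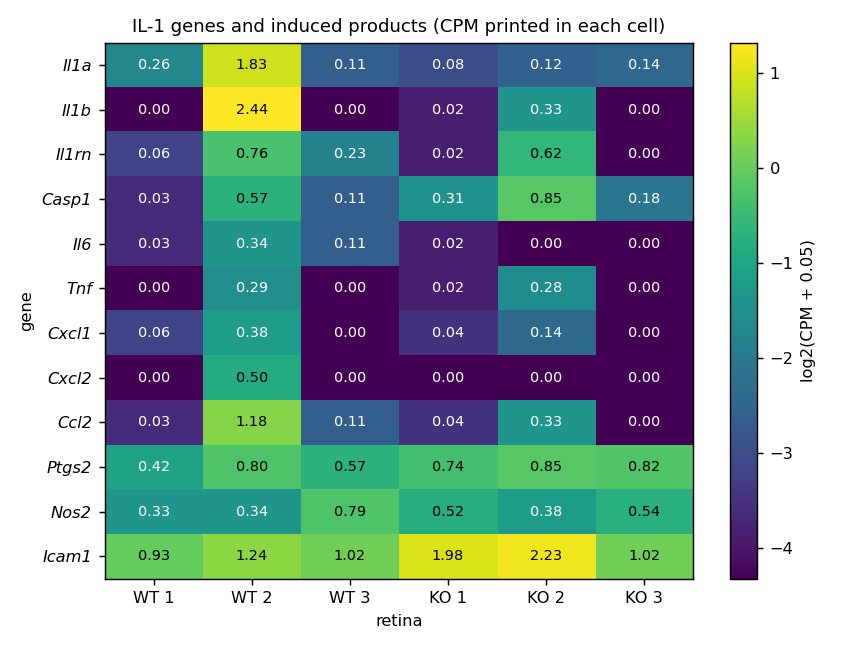
IL-1 genes, Casp1 and the 8 induced products with counts (rows) in each retina (columns), with CPM printed in each cell and colour giving log2(CPM + 0.05). WT replicate 2 is the brightest retina for Il1a, Il1b, Il1rn, Il6, Tnf, Cxcl1, Cxcl2 and Ccl2, and Il1b reaches 2.44 CPM there. For Tnf, Wfs1-KO replicate 2 is nearly as bright.

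To see whether the difference of Il18 was shared along the chromosome, the 39 other genes of the table with a start within 1 Mb of the start of Il18 were read from the same fit. Of these, 20 were tested, their median log2 fold change was -0.02, and 1 was called at an unadjusted p under 0.05, 2310030G06Rik, at 1.09 on the log2 scale (standard error 0.43, adjusted p = 0.979 from edgeR). It starts 185 kb from Il18 and was at 0.568 to 0.813 CPM in WT and at 0.990 to 2.18 CPM in Wfs1-KO. Starts are the lowest base of each gene, whichever its strand. Bco2, a carotenoid-cleaving oxygenase gene with its start at -21.7 kb from that of Il18, and Pih1d2, at 62.5 kb, were also higher in every mutant retina, with log2 fold changes of 0.62 (standard error 0.29) and 0.53 (standard error 0.29). Bco2 spans bases 50533087 to 50555181 and so overlaps the start of Il18 at 50554827 and the Il18 promoter window, without sharing an exon with Il18. Sik2 (log2 fold change -1.17, standard error 0.91), 2010007H06Rik (-0.61, standard error 0.34) and Gm47543 (-0.34, standard error 0.17) were lower in every mutant retina, as was Btg4, which did not pass the filter. The genotypes thus did not overlap for 6 of the 20 tested neighbours, 3 in each direction, where 8.96% of all tested genes had no overlap. Of the neighbours, the one with the log2 fold change nearest to that of Il18 was Hspb2, at 1.21 (standard error 0.86). Without Wfs1-KO replicate 2, 21 neighbours were tested and 6 were called at an unadjusted p under 0.05, all lower, beside 2.39% of all genes in that fit. They were Gm47543, Pts, Sdhd, Cryab, Sik2 and Btg4, at log2 fold changes from -3.82 for Btg4 to -0.30 for Sdhd, while Il18 was at 1.55.

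**Figure D4:**
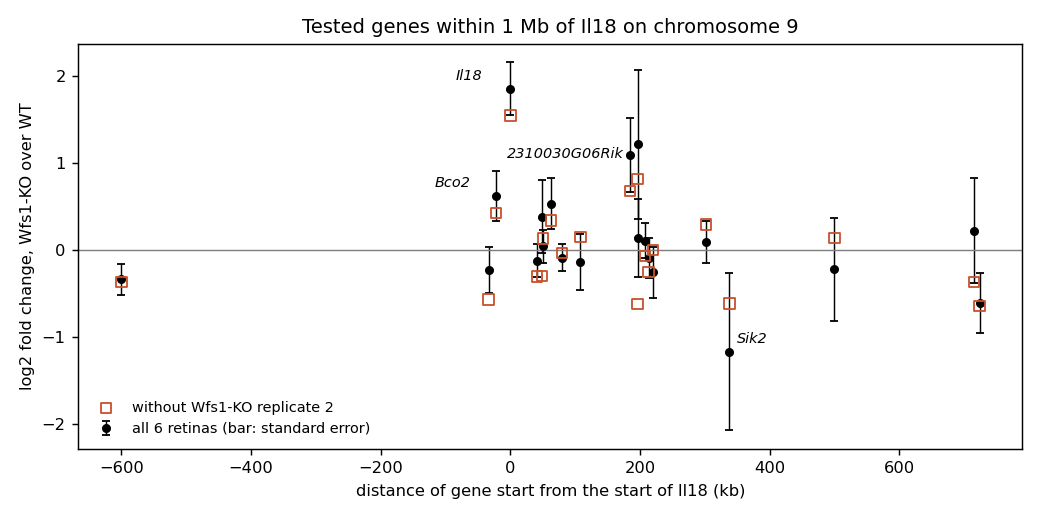
Log2 fold change of Wfs1-KO over WT (vertical axis) of Il18 and the 20 tested genes around it, by the distance of their start from the start of Il18 in kb (horizontal axis). Black points are all 6 retinas with the standard error, and open orange squares are values without Wfs1-KO replicate 2. Il18, at 1.85, lies above all of its neighbours, which fall on both sides of 0.

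The tested genes whose levels followed that of Il18 most closely over the 6 retinas were Gm12996, 4930481A15Rik, Gm4673, Iqcm and Mir9-3hg, with Pearson correlations of log2 CPM of 0.999, 0.996, 0.992, 0.989 and 0.987. None of the 5 is a member of the cytokine system, and 4 of them are non-coding genes. Iqcm was at 0.0602, 0.0210 and 0 CPM in WT and at 0.747, 1.47 and 0.545 CPM in Wfs1-KO replicates 1, 2 and 3. Among the members the correlation with Il18 was 0.80 for Pycard, 0.55 for Gsdmd, 0.54 for Casp1, 0.18 for Nlrp3, -0.0024 for Il18bp and -0.20 for Il1rn. These values describe 6 retinas that share a genotype split and 1 library that stood apart.

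Cell type markers were read beside the members because these genes are active in immune and epithelial cells. The 8 microglia markers, of which none was at 0, summed to 57.7 to 64.9 CPM in WT and to 74.9, 152 and 60.8 CPM in Wfs1-KO replicates 1, 2 and 3. The mean of mutant replicates 1 and 3 was 1.09-fold that of WT for this sum, and 2.99-fold for Il18. At an unadjusted p under 0.05, 1 of the 8 was called higher, Cx3cr1, beside 2.24% of all tested genes, and 0 of 8 with edgeR without Wfs1-KO replicate 2, beside 2.80%. Cx3cr1 and P2ry12, 2 of the 8, were higher in every mutant retina than in every WT retina, beside 5.01% of all tested genes, and P2ry12 was at 3.52 to 4.88 CPM in WT and 5.24 to 5.49 CPM in Wfs1-KO. The 8 macrophage and monocyte markers summed to 15.7 to 22.9 CPM in WT and to 22.4, 129 and 19.5 CPM in Wfs1-KO replicates 1, 2 and 3, and Ccr2, a defining monocyte marker, was at 0 in all WT retinas and in mutant replicate 3. Lyz2 made up 94.6 CPM of the sum in mutant replicate 2, where Ly6c2 and Cd163 were at 0. Lyve1 made up 16.8 and 17.5 CPM of the sums in mutant replicates 1 and 3. Ms4a7 was at 0.0291 and 0 CPM in these replicates, below the 0.135 to 0.568 CPM of WT, and at 2.56 CPM in mutant replicate 2. For the sum of the 8 markers, mutant replicates 1 and 3 together were at 1.13-fold of WT. Of the 3 macrophage and monocyte markers tested, Lyve1 was called higher at an unadjusted p under 0.05, beside 2.24% of all tested genes. It was higher in every mutant retina, beside 5.01%, at 13.6, 15.4 and 11.9 CPM in WT and 16.8, 29.2 and 17.5 CPM in Wfs1-KO replicates 1, 2 and 3. With edgeR without Wfs1-KO replicate 2, 0 of 3 were called higher and 1 lower, Ms4a7, beside 2.80% and 2.39%. In that fit the log2 fold changes were 0.32 for Lyve1, -0.14 for Lyz2 and -4.03 for Ms4a7. Mrc1, which was not tested, was at 0.0301 to 0.908 CPM in WT and at 0.0776, 1.23 and 0 CPM in Wfs1-KO replicates 1, 2 and 3.

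Wfs1-KO replicate 2 was set apart by markers of other tissues. The 6 corneal and conjunctival epithelium markers summed to 42.6 CPM there, against 0.963 to 1.93 CPM in WT and at most 2.36 CPM in the other mutants. This sum came mostly from Krt14 (21.3 CPM), Krt5 (10.96 CPM) and Krt15 (6.37 CPM), and Aldh3a1 and Trp63 were also highest in that retina. Krt12, at 0.284 CPM, lay within the 0.0420 to 0.341 CPM of WT. The sums of Wfs1-KO replicate 2 were also the highest for neutrophils (1.73 CPM against 0.114 to 0.151 CPM in WT), T and NK cells (0.995 CPM against 0 to 0.151 CPM) and red blood cells (480 CPM against 12.3 to 41.2 CPM). The neutrophil sum came mostly from S100a8 (0.521 CPM) and S100a9 (1.09 CPM), while Ly6g had 1 count and Mpo and Cxcr2 had 0 counts. Retnlg had 4 counts in each mutant retina and 0 in WT. Cd3e, Cd3d and Cd3g were highest in Wfs1-KO replicate 2, at 0.189, 0.189 and 0.379 CPM. Nkg7 and Klrb1c had 2 and 4 counts there, and Trac was highest in Wfs1-KO replicate 3. The pigment epithelium sum was 367 CPM there, but this came from Ttr (234 CPM) and Rgr (105 CPM), while Rpe65 and Best1 lay within the WT range and Lrat, at 4.59 CPM, below it. The endothelium sum of 61.9 CPM came mostly from Cldn5 (43.2 CPM). Pecam1 was also highest there, at 11.1 CPM against 8.68 to 10.1 CPM in WT, while Cdh5 and Tek were at their lowest of the 6 retinas. In the same retina Il18, Casp1, Pycard, Gsdmd and Il18r1 were at their highest, 5 of the 10 members, while 35.7% of all genes with a count were highest there. The part of these cell types in the levels of the members in that retina was not tested. In mutant replicates 1 and 3 the mean sums were 1.36-fold WT for corneal and conjunctival epithelium and 0.516-fold WT for pigment epithelium. Il18 was at 12.9 and 14.5 CPM in these retinas, against 3.35 to 5.45 CPM in WT. The part of these tissues in the level of Il18 was not tested. Of the 6 Müller glia markers, Glul was the only one whose genotypes did not overlap, beside 8.96% of all tested genes. It was at 2967 to 3245 CPM in WT and 1949 to 2683 CPM in Wfs1-KO, a log2 difference of -0.42 (standard error 0.18, adjusted p = 0.979 from edgeR).

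**Figure D5:**
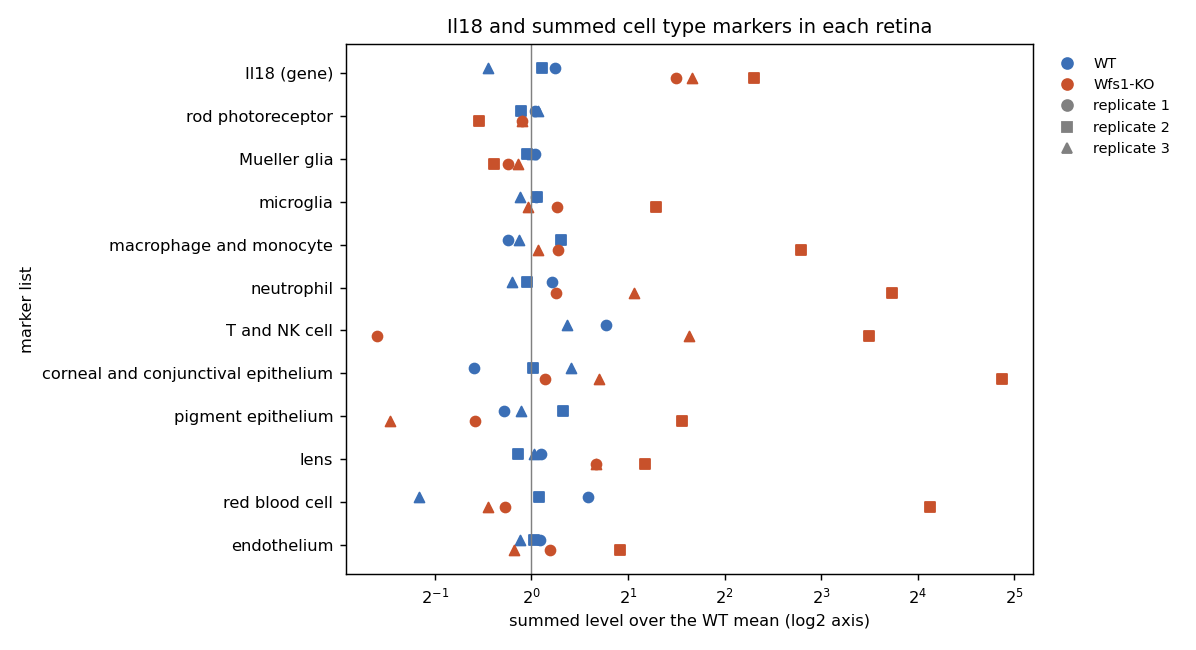
Level of Il18 (top row) and summed level of each cell type marker list in each retina, divided by the WT mean, on a log2 axis (WT blue, Wfs1-KO orange, one marker shape per replicate number; WT replicate 2, at 0 for T and NK cells, is not drawn in that row). Wfs1-KO replicate 2 lies far to the right for the corneal and conjunctival epithelium and red blood cell lists. For Il18 all 3 mutant retinas lie to the right of WT.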

How the data were processed

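RNA-seq was made from the whole retina of 6 mice, 3 per genotype, and p-values measure the spread between these animals. Per the submitters' processing notes, reads were trimmed with Trimmomatic 0.39, mapped to mm10 with STAR 2.5.3a and counted on exons with featureCounts 1.6.4, and the authors deposited raw counts per gene without normalization. The methods give other versions of the trimmer and aligner. Strand and pair settings are not given in the sources used here. Of the 8 library columns, 6 were matched to samples by genotype letter (C for control, W for Wfs1) and replicate number, and 2 that matched no sample were not used.

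Genotypes were compared with edgeR 4.0.16 (quasi-likelihood test, TMM factors, filterByExpr, Benjamini-Hochberg adjustment over all tested genes, threshold 0.05). CPM were scaled with the TMM factors, and a prior count of 2 was added before the log2 step behind correlations. DESeq2 1.42.0, limma-voom 3.58.1 with and without sample quality weights, other size factors and filters, a replicate block and leaving out each retina were alternatives, and the combined settings without the filter and without 1 retina were chosen after seeing the data. R 4.3.3 was used, and the fit was tested on simulated data. All members are named. From the wider list and from genes within 1 Mb of Il18, those with an unadjusted p under 0.05 or without overlap between genotypes are named by rule. Sigirr, Il33, Il1r1, Il1r2, Il18rap, Myd88, Ccl2, Cxcl2 and Hspb2 were added after their values were seen. Members, lists and markers were chosen with earlier results of these data known. Gene positions are from GENCODE M21, and promoters were matched by symbol for 9 of the 10 members.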

Additional observations from a re-analysis of the deposited data

How the results depend on the processing

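The log2 fold change of Il18 kept its direction under all 15 alternatives, between 1.55 and 2.0, with adjusted p between 6.29e-05 and 1.00. It passed the threshold with DESeq2 (1.84), with sample quality weights (1.62) and without Wfs1-KO replicate 2 (1.55), and leaving out each retina in turn gave 1.55 to 2.0. With the replicate block it was 1.85 (adjusted p = 0.992). The replicate numbers did not pair the retinas (correlations of deviations of -0.23, -0.11 and 0.08), and the block gave 1 gene past the threshold over the table and changed no call of a member. That number over the table, 2 in the edgeR fit of all retinas, was 52 with DESeq2, 35 with quality weights, 9 without the filter and 0 to 24 with each retina left out, the 24 being without Wfs1-KO replicate 2. Il18bp, at -0.0069, took the opposite sign with quality weights (0.11), upper-quartile factors (0.0074) and a minimum of 10 counts in every retina (0.0074), and ranged from -0.10 to 0.055 with each retina left out. Gsdmd was -0.0090 with quality weights and -0.13 to 0.73 with each retina left out, the lowest without Wfs1-KO replicate 2. Il1b was 5.66 without the filter and without WT replicate 2, and -5.79 without the filter and without Wfs1-KO replicate 2. The number of members with an unadjusted p under 0.05 was 2 with quality weights, without the filter and with the minimum of 10 counts, and 1 to 3 with each retina left out, and their median ranged from 0.04 to 0.79. In the wider list the number was 3 without the filter, beside 3.78% of all genes, and 0 to 2 with each retina left out, beside 1.6 to 5.19%, and its median was 0.11 with quality weights and 0.075 to 0.40 with each retina left out, the lowest without Wfs1-KO replicate 2. Beyond the constructions of these settings, the cause of each shift was not tested. With few reads for Il1a, Il1b, Il1rn, Il18r1, Casp1 and Nlrp3, differences between genotypes were not detectable at this depth unless large.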
